A study of Mus musculus with 12 samples.

Results

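The transcripts described here are 10 genes of the unfolded protein response and the integrated stress response, Atf4, Ddit3, Trib3, Xbp1, Hspa5, Asns, Sesn2, Ppp1r15a, Atf6 and Herpud1. They were taken from the deposited tables by gene symbol and are 10 of 52858 listed genes. All 10 lay among the 15240 genes that passed the filter on low values and were tested. RNA of mouse heart tissue was sequenced in 12 libraries, with 3 independent samples in each of 4 groups, to compare ischemia-reperfusion (IR) and an excess of the secreted guidance protein Slit2. Male mice of 3 to 5 months were used, and every heart, the controls included, was excised and perfused with buffer on a Langendorff apparatus. C57BL/6J hearts were perfused continuously for 80 min (C57-non-IR), or for 20 min followed by 20 min of global ischemia without flow and 40 min of reperfusion (C57-IR). Slit2-Tg hearts went through the same protocols (Slit2-non-IR and Slit2-IR). Slit2-Tg mice carry full-length human Slit2 cDNA under the CMV promoter, which is not restricted to a cell type, were made in C57 × CBA F1 oocytes, and are kept on the C57BL/6 background. Labels state each library's genotype, and its title letters were matched to the groups of the methods to tell IR from non-IR.

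When unfolded proteins collect in the endoplasmic reticulum (ER), the membrane sensors IRE1, PERK and ATF6 start the unfolded protein response. IRE1 splices Xbp1 mRNA, ATF6 is cleaved into a transcription factor, and both outputs raise chaperone and degradation genes. PERK and its sister kinases phosphorylate eIF2α, which lowers general protein synthesis while ATF4 is translated more, and ATF4 then drives genes for amino acid supply, the transcription factor CHOP (Ddit3) and the phosphatase subunit GADD34 (Ppp1r15a). The response is known in the heart from ischemia, in which oxygen, glucose and ATP run short. Gene-level RNA values do not show Xbp1 splicing, ATF6 cleavage, eIF2α phosphorylation or ATF4 protein.

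Response elements in the promoters are the sequences through which ATF6, XBP1 and ATF4 are known to act, and they are shown because the members of the pathway moved unevenly. RefSeq promoters (GRCm38.p6, from 250 bases before to 50 after each start) were matched for 9 of the 10 genes, all but Atf6. Both strands were searched for the amino acid response element TGATGNAA, present in 3.97% of 32851 promoters. The search also covered the ER stress element, which is CCAAT, any 9 bases and CCACG (0.119%), and its second form, ATTGG, any 1 base and CCACG (0.0365%). The UPRE core TGACGTGG was present in 0.676% and the cyclic AMP response element TGACGTCA in 1.79%. The forms of the ER stress element share CCACG, and no base of a match was used by more than 1 motif in these genes. In the stretches printed here, 5′ to 3′ along the gene's strand, capitals mark the match on either strand. The Hspa5 stretch (chr2:34772020-34772049, plus strand) holds an ER stress element and that of Asns (chr6:7693214-7693243, minus strand) an amino acid response element. The Ppp1r15a stretch (chr7:45526262-45526291, minus strand) holds the cyclic AMP response element and that of Trib3 (chr2:152344028-152344057, minus strand) an amino acid response element just past the RefSeq start, upstream of the gene model of the files. The longer Herpud1 stretch (chr8:94386257-94386427, plus strand) holds an amino acid response element and the second ER stress element.
Hspa5: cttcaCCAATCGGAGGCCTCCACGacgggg
Asns: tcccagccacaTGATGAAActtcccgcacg
Ppp1r15a: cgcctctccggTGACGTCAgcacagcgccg
Trib3: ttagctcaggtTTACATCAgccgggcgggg
Herpud1: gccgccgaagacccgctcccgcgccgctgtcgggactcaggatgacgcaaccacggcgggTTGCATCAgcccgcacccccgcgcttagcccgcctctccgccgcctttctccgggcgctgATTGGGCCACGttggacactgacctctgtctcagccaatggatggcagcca
None of these letter strings was found in the windows of Atf4, Ddit3, Xbp1 and Sesn2, which says only that the letters are not in those bases. A match is a description of the sequence, and binding was not measured.

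The libraries held 16601154 to 24841291 reads on genes, of which 19.7% to 26.0% were mitochondrial. Ventricular muscle markers were abundant in all 12 libraries, with a summed FPKM (fragments corrected for the length of the gene and the size of the library) of 14887 to 22719. They were highest in replicate 1 of each group (19246.5 to 22719, against 14887 to 17804 in the others). Atrial markers summed to 1714 FPKM in Slit2-IR replicate 1 and to 19.9 to 233 in the other libraries. Leukocyte markers were lowest in replicate 1 of each group (102 to 137, against 147 to 229 in the others). Adipose markers summed to 0.0410 to 1.43 FPKM in all C57-non-IR libraries. They were 0.205, 19.2 and 21.4 in C57-IR replicates 1 to 3, and 0.976 to 13.2 in the Slit2-Tg libraries. Lung markers were 0.0582 to 0.391 FPKM in replicate 1 of each group, the other Slit2-IR libraries and Slit2-non-IR replicate 3. They were 5.53 to 12.5 in the remaining libraries. Mouse Slit2 had a mean of 0.195 FPKM in C57-non-IR, 0.243 in C57-IR and 0.178 in Slit2-non-IR hearts. In Slit2-IR replicates 1 to 3 it was 0.153, 0.813 and 0.0847. The transgene is a human cDNA, and whether its reads count to the mouse gene was not tested. These values therefore do not check the labels. In bulk heart RNA, fewer cells of a type and less RNA per cell cannot be told apart.

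In non-IR hearts the members covered a wide range of levels. Herpud1 was the most abundant, at 138.7 ± 32.8 FPKM in C57-non-IR and 130.02 ± 29.6 in Slit2-non-IR hearts (SD, n = 3). It was followed in both groups by Hspa5, Atf4, Ppp1r15a, Ddit3, Xbp1, Atf6, Trib3, Sesn2 and Asns, the last at 0.689 ± 0.191 FPKM in C57-non-IR hearts (SD, n = 3). The library ranges of Herpud1 and Hspa5 overlapped in C57-non-IR hearts, as did those of Ddit3 and Xbp1, and those of Ppp1r15a and Ddit3, of Xbp1 and Atf6, and of Trib3 and Sesn2 overlapped in both groups. In C57-IR and Slit2-IR hearts Hspa5 had the highest mean, followed by Atf4, Herpud1 and Ppp1r15a. These 4 genes overlapped with their neighbours in C57-IR hearts, and in Slit2-IR hearts Hspa5 lay above the other 9. Trib3, Sesn2 and Asns stayed the lowest, resting on 26 to 182 reads per library, against 619 or more for each of the other 7 genes.

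**Figure D1:**
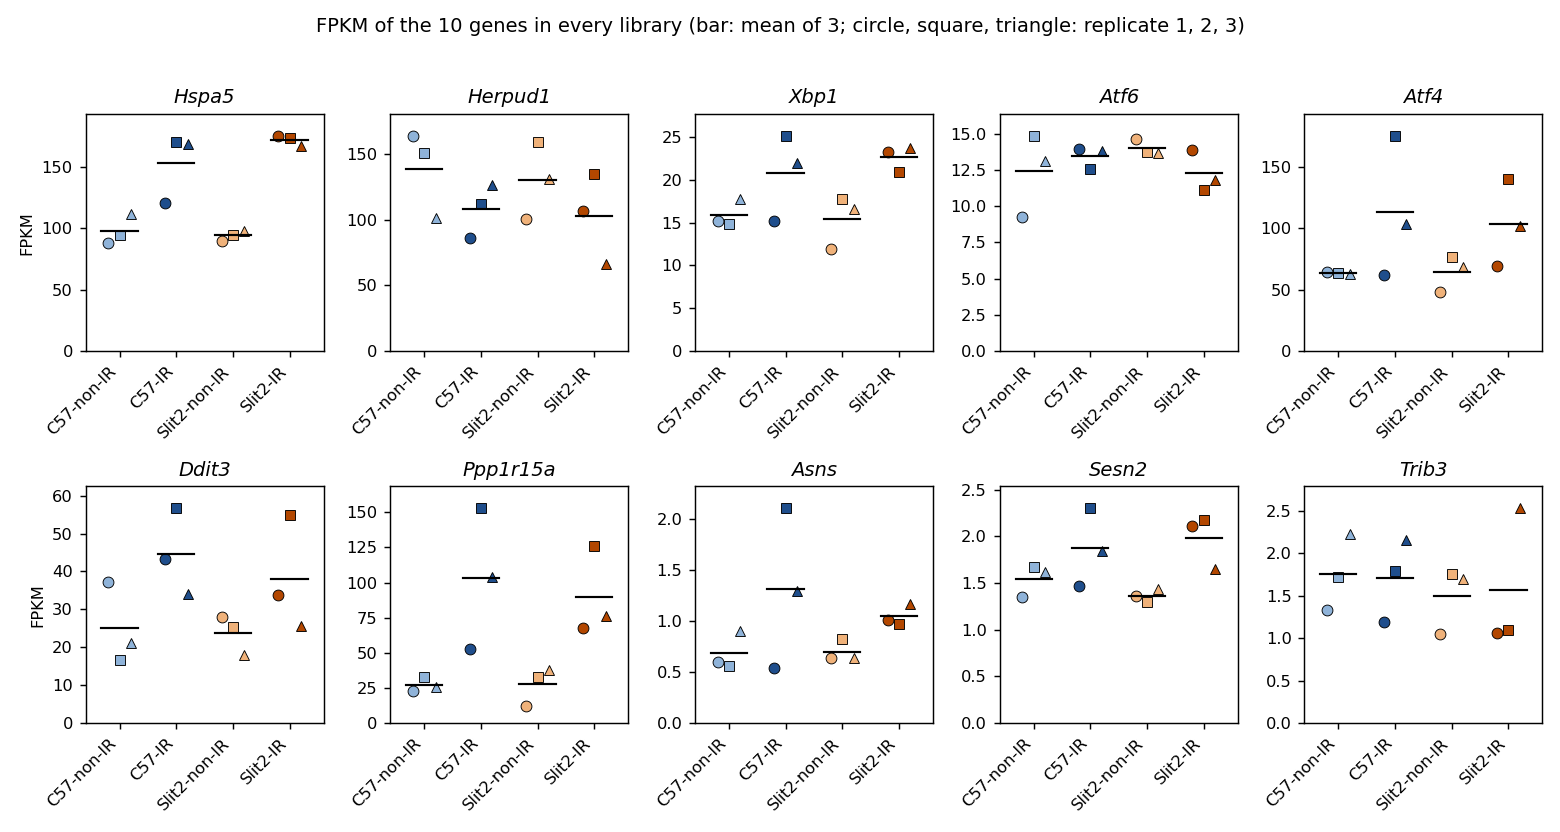
FPKM (vertical axes, each from 0) of the 10 genes in every library of the 4 groups. Symbols are replicates 1, 2 and 3 and the bar is the group mean. All 6 IR libraries lie above all 6 non-IR libraries for Hspa5 and Ppp1r15a.

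Hspa5 (ENSMUSG00000026864, chromosome 2 from 34771970 to 34777547, GRCm38, plus strand) encodes BiP, the major ER chaperone, which also holds the sensors inactive. Its level was 87.7, 94.5 and 111 FPKM in C57-non-IR replicates 1 to 3, and 121, 169.9 and 169 in C57-IR hearts. In Slit2-non-IR hearts it was 89.7, 94.3 and 97.9 FPKM, and in Slit2-IR hearts 175, 174 and 167. Every IR library was above every non-IR library, C57-IR replicate 1 being the lowest of the IR hearts. On the log2(FPKM + 1) scale, IR minus non-IR was 0.75 over both genotypes (standard error 0.10), a 1.69-fold difference in mean FPKM with an adjusted p of 0.00246. The adjusted p stayed between 0.000205 and 0.0102 over the alternatives. In Slit2-Tg hearts alone Hspa5 rose by 0.86 (standard error 0.14, 1.83-fold, adjusted p = 0.0257). In C57BL/6J hearts alone the difference was 0.63 (standard error 0.14, 1.56-fold), which missed the threshold with an adjusted p of 0.0831. The adjusted p in C57BL/6J hearts was 0.00603 without C57-IR replicate 1 and 0.0372 in a fit with replicate number as a block. In Slit2-Tg hearts it lay between 0.0542 and 0.119 when C57-non-IR replicate 2, Slit2-IR replicate 1 or 2, or any Slit2-non-IR library was left out, while the difference stayed between 0.83 and 0.89, and it was 0.0684 with no filter and 0.0600 with scaling outside the mitochondrial chromosome. The ER stress element of Hspa5 shown above starts 65 bases before the RefSeq start, within an exon of the annotation, whose gene model starts further upstream.

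Ppp1r15a (ENSMUSG00000040435, chromosome 7 from 45522916 to 45526268, minus strand) encodes GADD34, which brings a phosphatase to eIF2α and so ends the block of translation. It had the largest IR difference of the 10 genes. Its level was 22.8, 32.8 and 25.8 FPKM in C57-non-IR hearts and 52.4, 153 and 104 in C57-IR hearts. It was 12.4, 32.8 and 37.6 FPKM in Slit2-non-IR hearts and 67.4, 126 and 76.2 in Slit2-IR hearts. The groups did not overlap in either genotype, and replicate 2 was the highest of both IR groups. Over both genotypes the difference was 1.77 on the log2(FPKM + 1) scale (standard error 0.31, 3.53-fold in mean FPKM, adjusted p = 0.0105, from 0.00118 to 0.0376 over the alternatives). Within a genotype the differences were about as large, 1.78 in C57BL/6J and 1.75 in Slit2-Tg hearts (standard error 0.44 each), but did not pass the adjusted threshold (adjusted p = 0.126 and 0.117). With that block over all 12 libraries, limma's adjusted p was 0.0174 in Slit2-Tg hearts and 0.0171 in C57BL/6J hearts. Deviations of same-numbered C57-IR and C57-non-IR libraries from their group means had correlations of 0.0833 to 0.295 over all tested genes. Without C57-IR replicate 1 the C57BL/6J difference was 2.19 with an adjusted p of 0.0327. The 3′ end of Ppp1r15a shares 717 bases with Tulp2 on the opposite strand, whose level was 0.153 to 0.708 FPKM, far below that of Ppp1r15a.

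Atf4 (ENSMUSG00000042406, chromosome 15 from 80255184 to 80257540, plus strand) encodes the transcription factor at the centre of the integrated stress response. Its level was nearly the same in the C57-non-IR libraries, 64.5, 63.8 and 62.9 FPKM, and was 62.3, 175 and 103 in C57-IR hearts. In Slit2-non-IR hearts it was 47.8, 76.5 and 68.1 FPKM, and in Slit2-IR hearts 69.2, 139.9 and 102. Replicates 2 and 3 of both IR groups were above all non-IR libraries, whereas replicate 1 of each lay within the non-IR range. The difference over both genotypes was 0.68 (standard error 0.24), 1.70-fold in mean FPKM, with an unadjusted p of 0.0167 and an adjusted p of 0.176 in limma's test. Without C57-IR replicate 1 it was 0.86 and passed the threshold (adjusted p = 0.0403), as it did with the replicate block (0.0391). Only these 2 of the 19 alternatives passed for Atf4, and limma's adjusted p reached 0.336 over them all. Without replicate 1 of all groups the adjusted p was 0.0514.

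Ddit3 (ENSMUSG00000025408, chromosome 10 from 127290774 to 127296288, plus strand) encodes CHOP, a transcription factor linked to cell death under lasting ER stress. It was measured at 37.1, 16.7 and 21.1 FPKM in C57-non-IR hearts and 43.2, 56.8 and 34.2 in C57-IR hearts. It was 28.1, 25.4 and 17.9 FPKM in Slit2-non-IR hearts and 33.7, 54.8 and 25.5 in Slit2-IR hearts. Only 3 of the 6 IR libraries exceeded all non-IR libraries. The difference over both genotypes was 0.73 (standard error 0.23, unadjusted p = 0.00871, limma adjusted p = 0.124). The last 68 bases of Ddit3 are shared with Mars on the opposite strand (10.5 to 14.0 FPKM), and the use of strand in counting is not given in the sources used here.

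Xbp1 (ENSMUSG00000020484, chromosome 11 from 5520659 to 5525893, plus strand) encodes the transcription factor made active by IRE1 splicing. Its level was 15.2, 14.8 and 17.8 FPKM in C57-non-IR hearts and 15.2, 25.1 and 22.0 in C57-IR hearts. It was 11.9, 17.8 and 16.6 FPKM in Slit2-non-IR hearts and 23.2, 20.9 and 23.7 in Slit2-IR hearts. The Slit2-Tg groups did not overlap, and C57-IR replicate 1 was the only IR library within the non-IR range. Over both genotypes the difference was 0.44 (standard error 0.13, 1.38-fold), with an unadjusted p of 0.00544 and a limma adjusted p of 0.0953. Without C57-IR replicate 1 the adjusted p was 0.0159, and with the replicate block it was 0.0484. Only these 2 of the 19 alternatives passed for Xbp1, and limma's adjusted p reached 0.219 over them all. Without replicate 1 of all groups the adjusted p was 0.0502.

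Atf6 (ENSMUSG00000026663, chromosome 1 from 170704674 to 170867771, minus strand) encodes the sensor that is cleaved into a transcription factor. Its level was 9.27, 14.9 and 13.1 FPKM in C57-non-IR hearts and lay between 11.1 and 14.7 FPKM in the other 9 libraries. The groups overlapped in every comparison. The difference after IR over both genotypes was -0.03, and 2 standard errors around it reached from -0.23 to 0.18 on the log2(FPKM + 1) scale.

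Herpud1 (ENSMUSG00000031770, chromosome 8 from 94386438 to 94395377, plus strand) encodes an ER membrane protein of ER-associated degradation and is a known target of both ATF6 and ATF4. It was 164, 151 and 102 FPKM in C57-non-IR hearts and 86.2, 112 and 127 in C57-IR hearts. It was 100.2, 159 and 131 FPKM in Slit2-non-IR hearts and 107, 134 and 66.5 in Slit2-IR hearts. The groups overlapped, and the means were lower in IR hearts of both genotypes. The difference over both genotypes was -0.36 (standard error 0.19, 0.784-fold, unadjusted p = 0.0915, limma adjusted p = 0.419), the most negative difference of the 10 genes. The response elements of the Herpud1 stretch shown above begin 112 and 52 bases before its RefSeq start.

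The remaining members are known targets of ATF4. Asns (ENSMUSG00000029752, chromosome 6 from 7675169 to 7693254, minus strand) encodes asparagine synthetase. Its level was 0.601, 0.559 and 0.908 FPKM in C57-non-IR hearts and 0.545, 2.11 and 1.30 in C57-IR hearts, which hold both the lowest and the highest of the 12 values. In Slit2-non-IR hearts it was 0.634, 0.824 and 0.636 FPKM, and in Slit2-IR hearts 1.01, 0.972 and 1.16, with no overlap. The difference over both genotypes was 0.34 (standard error 0.14, unadjusted p = 0.0325, limma adjusted p = 0.252). Without C57-IR replicate 1, which had the lowest value, Asns passed the threshold over both genotypes (0.47, adjusted p = 0.0141) and in C57BL/6J hearts alone (0.67, adjusted p = 0.0370), where the difference with all libraries was 0.41 (adjusted p = 0.601). Without C57-IR replicate 2, which had the highest value, the differences were 0.22 over both genotypes (adjusted p = 0.434) and 0.16 in C57BL/6J hearts (adjusted p = 0.998).

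Sesn2 (ENSMUSG00000028893, chromosome 4 from 132492032 to 132510501, minus strand) encodes sestrin 2, a stress-inducible regulator of mTORC1. It was 1.35, 1.67 and 1.61 FPKM in C57-non-IR hearts and 1.47, 2.30 and 1.84 in C57-IR hearts. It was 1.36, 1.30 and 1.43 FPKM in Slit2-non-IR hearts and 2.11, 2.18 and 1.65 in Slit2-IR hearts. The Slit2-Tg groups did not overlap, and 4 of the 6 IR libraries exceeded all non-IR libraries. The difference over both genotypes was 0.25 (standard error 0.08, unadjusted p = 0.0108, limma adjusted p = 0.139).

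Trib3 (ENSMUSG00000032715, chromosome 2 from 152337422 to 152344032, minus strand) encodes a pseudokinase induced by ATF4 and CHOP. Its level was 1.33, 1.72 and 2.23 FPKM in C57-non-IR hearts and 1.19, 1.79 and 2.16 in C57-IR hearts. It was 1.04, 1.75 and 1.69 FPKM in Slit2-non-IR hearts and 1.07, 1.09 and 2.53 in Slit2-IR hearts. Replicates within a group differed by more than the group means did. The difference over both genotypes was -0.01, with 2 standard errors from -0.33 to 0.30.

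Counted together, 2 of the 10 members passed the adjusted threshold over both genotypes, both higher in IR hearts, against 3.49% of all tested genes in either direction and 2.34% higher. At an unadjusted p under 0.05, 7 members (Atf4, Ddit3, Xbp1, Hspa5, Asns, Sesn2 and Ppp1r15a) were higher and 0 lower, where 7.93% of all tested genes were higher. The members were chosen with earlier results of these data known, so these counts are descriptions and do not test the set. The study's list of genes higher in C57-IR hearts already held Atf4, Ddit3, Hspa5, Asns and Ppp1r15a. The IR and non-IR libraries did not overlap for 2 members, Hspa5 and Ppp1r15a, and for 2.23% of tested genes that were higher. The median difference of the members was 0.39, beside 0.00 for all tested genes. In C57BL/6J hearts 0 members passed the adjusted threshold of limma (0.459% of genes), 3 were higher at an unadjusted p under 0.05 (4.55% of genes), and 2 did not overlap (6.75% of genes higher without overlap). With limma-voom the counts in C57BL/6J hearts were also 0 adjusted and 3 unadjusted. In Slit2-Tg hearts 1 member, Hspa5, passed the adjusted threshold (0.525% of genes), 4 were higher at an unadjusted p under 0.05 (6.15%), and 5 (Xbp1, Hspa5, Asns, Sesn2 and Ppp1r15a) did not overlap (8.65% of genes higher). With the replicate block 2 members passed in Slit2-Tg hearts (1.33% of all genes), 2 in C57BL/6J hearts (1.14%) and 4 over both genotypes (5.07%).

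**Figure D2:**
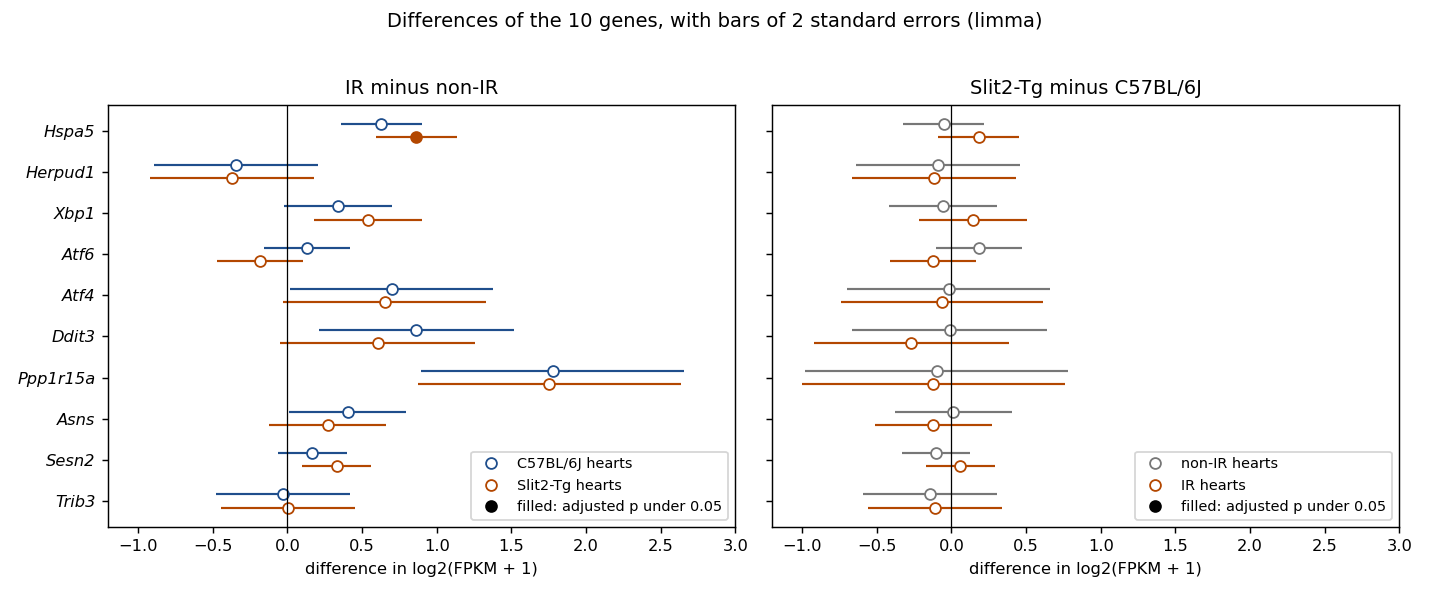
Differences in log2(FPKM + 1) of the 10 genes, with bars of 2 standard errors from limma. Left, IR minus non-IR in each genotype, right, Slit2-Tg minus C57BL/6J in non-IR and in IR hearts. Hspa5 in Slit2-Tg hearts is the only filled point, at 0.86, and all bars on the right cross 0.

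Replicates 1 and 2 carried much of the spread among C57-IR hearts. C57-IR replicate 2 was the highest of its group for 7 of the 10 members. C57-IR replicate 1 was the lowest of its group for 8 of the 10 members and for 14 of 15 other ER chaperones, and it had 102 FPKM of summed leukocyte markers against 209 and 225 in the other C57-IR libraries. Its adipose markers summed to 0.205 FPKM against 19.2 and 21.4, and its lung markers to 0.0582 against 9.21 and 10.9. Without C57-IR replicate 1, 5 members passed the adjusted threshold over both genotypes and 3 in C57BL/6J hearts, while the share of all genes that passed was 4.68% and 1.67%. The median IR difference of the members in C57BL/6J hearts was 0.37 with all libraries. It was 0.60 without C57-IR replicate 1 and 0.18 without C57-IR replicate 2. Replicate 1 was also the lowest of its group for 7 of 10 members in Slit2-non-IR hearts and for 5 of 10 in C57-non-IR hearts. In Slit2-IR hearts replicate 1, with 102 FPKM of leukocyte markers, was the lowest for only 3 of 10 members. There it was the lowest for 0 of the 15 chaperones and the highest for 10. Without replicate 1 of all 4 groups, an alternative chosen after the data were seen, 2 members passed over both genotypes (2.83% of all genes), 2 in C57BL/6J hearts (1.15%) and 1 in Slit2-Tg hearts (0.164%). The part of the other cell types in these differences was not tested.

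The Slit2-Tg genotype, as labelled, was not associated with a detectable difference in any of the 10 genes. Without IR, 0 members differed between the genotypes past the adjusted threshold in limma (0.0394% of genes did), 0 did so at an unadjusted p under 0.05 (3.19%), and 0 were free of overlap (9.2%). The differences ran from -0.14 for Trib3 to 0.19 for Atf6, with standard errors of 0.11 to 0.44. Between Slit2-IR and C57-IR hearts the counts were again 0 (0.0459%, 3.16% and 6.47% of genes), and limma-voom also called 0 members in both comparisons. Here the differences ran from -0.27 for Ddit3 to 0.18 for Hspa5. The test of the interaction, which asks whether IR changed a gene differently in Slit2-Tg hearts, had 0 members at an adjusted or unadjusted p under 0.05, beside 0% and 1.86% of all genes. For Hspa5 the interaction was 0.24, with 2 standard errors from -0.15 to 0.62, and for Ppp1r15a it was -0.02, from -1.27 to 1.22. The interval is wide for Ppp1r15a and narrower for Hspa5.

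Lists of related genes, also chosen with earlier results of these data known, were set beside the members, and their counts are descriptions. Of 15 other ER chaperones and folding enzymes, 14 were higher in IR hearts over both genotypes. Of these 12 had an unadjusted p under 0.05 (7.93% of all tested genes were higher at that level) and 3 passed the adjusted threshold (2.34%), and the median difference of the list was 0.42. Manf, a secreted ER stress factor, rose by 0.74 (standard error 0.13, adjusted p = 0.0102). Hsp90b1, the ER form of HSP90, rose by 0.56 (adjusted p = 0.0362), and Calr, the calcium-binding chaperone calreticulin, by 0.53 (adjusted p = 0.0410). Manf passed in every alternative over both genotypes, whereas Hsp90b1 and Calr each missed the threshold when any of 9 single libraries was left out (adjusted p up to 0.0968 and 0.107). Manf was 8.50, 8.14 and 9.15 FPKM in C57-non-IR, 8.91, 14.9 and 13.6 in C57-IR, 6.91, 7.32 and 8.34 in Slit2-non-IR and 19.4, 12.6 and 17.2 in Slit2-IR hearts. C57-IR replicate 1 was thus at the non-IR level for Manf, as it was for Xbp1 and Atf4. Within Slit2-Tg hearts 11 of the 15 chaperones were higher at an unadjusted p under 0.05 (6.15% of all genes) and Manf passed the adjusted threshold (1.01, adjusted p = 0.0421, and up to 0.163 with single libraries left out), while in C57BL/6J hearts 4 (4.55% of all genes) and 0 did so. The interaction had 0 of 15 at an unadjusted p under 0.05. Slit2-IR replicate 1, the library with 1714 FPKM of atrial markers, was the highest of its group for 10 of the 15 chaperones. Without Slit2-IR replicate 1, 7 of 15 in Slit2-Tg hearts (8.87% of all genes in either direction) and 11 of 15 over both genotypes (14.2%) had an unadjusted p under 0.05, and 1 passed the adjusted threshold over both genotypes (2.37%). Without C57-IR replicate 1, 12 of 15 in C57BL/6J hearts had an unadjusted p under 0.05 (11.3% of all genes) and 7 passed the adjusted threshold over both genotypes (4.68%). With scaling to the total outside the mitochondrial chromosome the unadjusted counts were 0 in C57BL/6J hearts (10.3% of all genes), 8 in Slit2-Tg hearts (12.9%) and 8 over both genotypes (19.2%).

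Among 25 tested ATF4 and CHOP targets outside the members, 3 rose past the adjusted threshold over both genotypes and 0 fell. Of all tested genes 2.34% rose and 3.49% differed in either direction at that level. The median difference of the list was 0.05. Atf3, a transcription factor induced early by many stresses, rose by 2.55 (standard error 0.26, 6.29-fold in mean FPKM, adjusted p = 0.000844). Gdf15, a secreted stress cytokine, rose by 1.57 (4.77-fold, adjusted p = 0.00523), and Slc7a5, an amino acid transporter, by 0.69 (2.13-fold, adjusted p = 0.0202). Atf3 was also called in each genotype (adjusted p = 0.0230 in C57BL/6J and 0.0236 in Slit2-Tg hearts), and Gdf15 in Slit2-Tg hearts (adjusted p = 0.0457). Over both genotypes Atf3 and Gdf15 passed in every alternative, while Slc7a5 missed the threshold when replicate 2 of C57-IR, replicate 3 of C57-non-IR or replicate 2 of Slit2-non-IR was left out (0.0549 to 0.0577) and with no filter (0.0599). With single libraries left out, the adjusted p within a genotype reached 0.105 in C57BL/6J and 0.111 in Slit2-Tg hearts for Atf3 and 0.169 for Gdf15, and without replicate 1 of all groups it was 0.168 for Atf3 in Slit2-Tg hearts. Gdf15 was 1.92 FPKM in C57-IR replicate 1 and 5.79 to 8.86 in the other IR libraries, while Atf3 was 288 in that library and 242 to 656 in the others. The list was mixed at an unadjusted p under 0.05, with 5 genes higher and 4 lower (7.93% and 7.97% of all genes). The lower ones were Ddit4, an mTORC1 inhibitor, with a difference of -0.84, the hormone gene Stc2 (-0.43), Pck2 (-0.28) and Slc7a1 (-0.21). The genotypes differed in direction for Slc7a1. Its mean FPKM was 4.20 in C57-non-IR and 5.01 in C57-IR hearts, and 2.44 in Slit2-non-IR and 1.24 in Slit2-IR hearts. The interaction had 1 of the 25 genes at an unadjusted p under 0.05 in limma, with a negative sign (1.86% of all genes in either direction). In Slit2-IR against C57-IR hearts 1 gene of the list was lower past the adjusted threshold (0.0459% of all genes passed in either direction). It was the cationic amino acid transporter Slc7a1, at 1.25, 1.15 and 1.32 FPKM in Slit2-IR and 5.87, 5.26 and 3.91 in C57-IR hearts (-1.41, standard error 0.13, adjusted p = 0.00370). The adjusted p of Slc7a1 was 0.0669 in a fit of the 6 libraries compared and 0.0785 without replicate 1 of all groups. Slc7a1 did not overlap between the genotypes without IR either, at 2.57, 2.61 and 2.15 FPKM in Slit2-non-IR and 4.69, 4.17 and 3.74 in C57-non-IR hearts (-0.59, unadjusted p = 0.000684, limma adjusted p = 0.453). IR minus non-IR for Slc7a1 in Slit2-Tg hearts was -0.62 (adjusted p = 0.0617, and 0.0316 with the replicate block).

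The sensors and regulators upstream of the members had a median difference of -0.04 after IR, and their counts were near the share of all genes (7.93% higher and 7.97% lower at an unadjusted p under 0.05). Of 13 such genes (Ern1, the 4 eIF2α kinases, the ATF6 proteases and subunits of eIF2 and eIF2B) 0 passed limma's adjusted threshold over both genotypes, 1, Eif2s1, was higher at an unadjusted p under 0.05 (0.15), and 0 were lower. Of 11 aminoacyl-tRNA synthetases 0 passed, 1, Tars, was higher at an unadjusted p under 0.05 (0.14), and the median was 0.03. Of 12 genes of ER-associated degradation 0 passed, Syvn1 was higher (0.16) and Edem2 lower (-0.17) at an unadjusted p under 0.05, and the median was 0.07. With limma-voom the adjusted counts of these lists were also 0. Of 10 paralogs of the members, 2 rose past the adjusted threshold over both genotypes (2.34% of all tested genes were higher at that level). Trib1, a relative of Trib3, rose by 1.26 (adjusted p = 0.0153, and 0.108 without replicate 1 of all groups and 0.0505 with no filter), and Hspa8, the constitutive cytosolic relative of Hspa5, rose by 0.82 (adjusted p = 0.00472). The other 8 paralogs included Atf6b, Ppp1r15b and Herpud2 and did not pass the test.

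**Figure D3:**
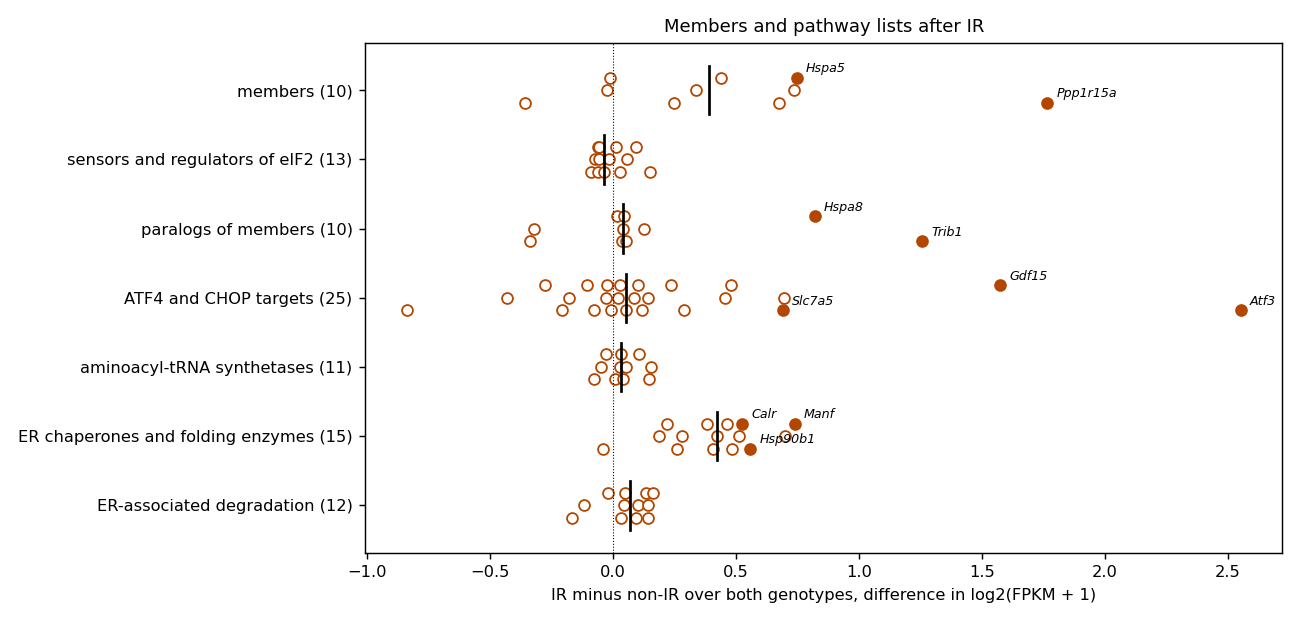
IR minus non-IR over both genotypes in log2(FPKM + 1) for the members and 6 related lists, with the number of tested genes in brackets. Each point is a gene, filled where the adjusted p was under 0.05, and the bar is the list's median. The medians of the members (0.39) and of the ER chaperones (0.42) lie to the right of those of the other lists, which are between -0.04 and 0.07.

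**Figure D4:**
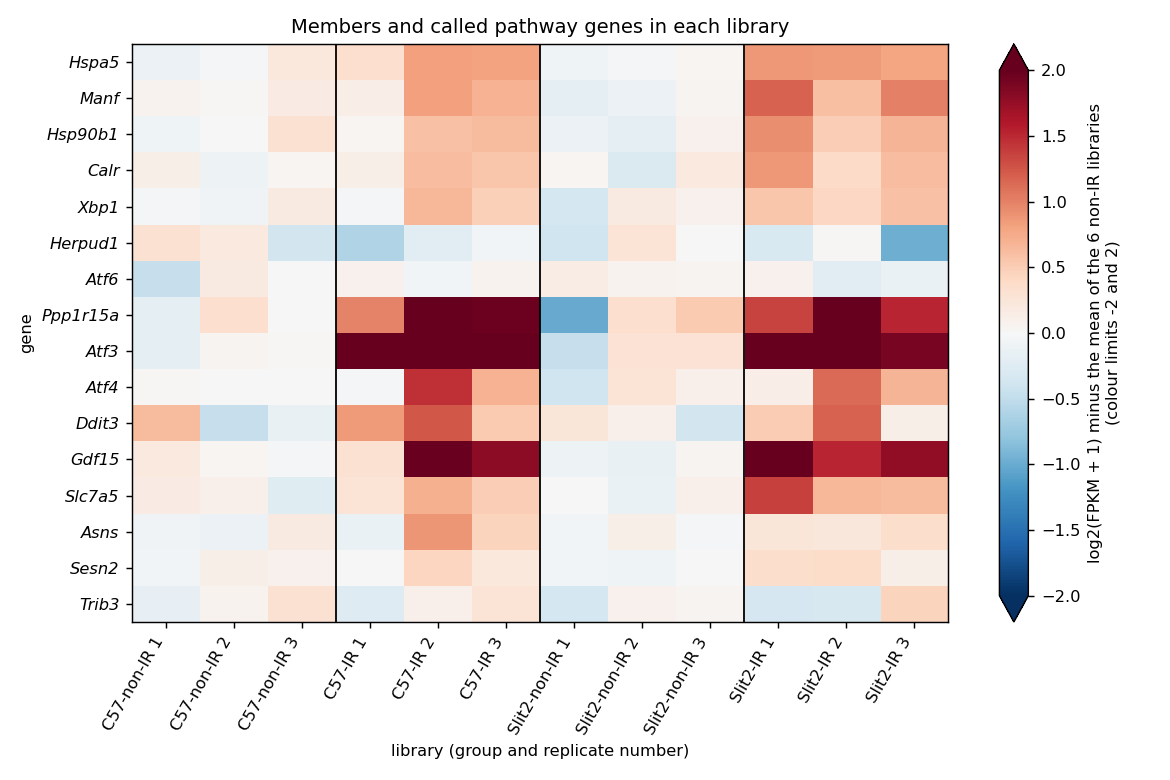
Level of the 10 members and of the ER chaperones and ATF4 or CHOP targets that passed the test, in each library, as log2(FPKM + 1) minus the mean of the 6 non-IR libraries (colour, limits at -2 and 2). C57-IR replicate 1 is pale for Atf4, Xbp1, Asns, Gdf15 and Manf and red for Ppp1r15a and Atf3.

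Across the 12 libraries several members varied together, which is a description of libraries that share the IR difference and carries no test. On log2(FPKM + 1), Pearson's r was 0.899 between Hspa5 and Ppp1r15a, 0.897 between Atf4 and Ppp1r15a and 0.886 between Xbp1 and Hspa5. After subtraction of each group's mean it was 0.616, 0.874 and 0.802, so Atf4 and Ppp1r15a also varied together within groups. Ddit3 and Ppp1r15a had an r of 0.599, and of -0.01 within groups. The genes with the pattern most like Ppp1r15a over the 12 libraries were Btg1 (r = 0.992), Birc3 (0.986) and Apold1 (0.985). Those most like Hspa5 were Sphk1 (0.978), Gadd45g (0.973) and Bhlhe40 (0.970), and those most like Atf4 were Pi4k2b (0.955), Ifi207 (0.954) and Ier5l (0.953). Those most like Xbp1 were Klf16 (0.964), Bbc3 (0.953) and Gm14681 (0.948). Of the 30 genes most like a member, 3 for each, Slc3a2, the partner of Slc7a5, was the only one on the related lists, with an r of 0.909 to Asns.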

How the data were processed

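Libraries were made from total RNA with a NEBNext Ultra kit and sequenced on a HiSeq platform in paired-end mode. Per the labels, HISAT2 and the mm10 build were used, while the counting tool, annotation release and use of strand are not given in the sources used here. The authors deposited an FPKM for each gene in each library, beside identifiers, gene lengths and coordinates. The product of FPKM and gene length was a whole multiple of the worth of 1 read (100% of values below 500 reads, within 0.01 reads), which gave the reads on each gene.

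Tested genes reached, in 3 or more libraries, a level worth 10 reads in the median library, and 15 reads in total. They were tested on log2(FPKM + 1) with limma 3.58.1 (variance trend, R 4.3.3), with all 12 libraries and 4 groups in 1 fit. FPKM is not a count, so no count model was used. Fold differences on this scale understate those of low genes. The Benjamini-Hochberg adjustment covered all 15240 tested genes, with a threshold of 0.05, and the study's own cutoff was an unadjusted one. Standard errors and p-values rest on the spread between samples within groups, pooled over the 4 groups and moderated by limma towards the trend of all genes. The spread of the 3 samples of a single group can differ from it. An exact permutation test of 3 against 3 cannot go below 0.1. The fit was also run on simulated reads, drawn without replicate effects or differences in tissue content, and no result here rests on that run.

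Deviations of same-numbered libraries from their group means had positive correlations in each comparison, and the labels name no shared day or litter. They were 0.143 to 0.294 in Slit2-IR against Slit2-non-IR and 0.154 to 0.362 in Slit2-IR against C57-IR hearts. In C57-IR against C57-non-IR hearts they were 0.0833 to 0.295, and in Slit2-non-IR against C57-non-IR hearts 0.0377 to 0.324. The fit with replicate number as a block covers all 12 libraries, and its value is given where it changes a call. Alternatives were a pseudocount of 0.1, no filter, 10 reads in every library, limma-voom on recovered reads, scaling to the total outside the mitochondrial chromosome, only the libraries compared, the replicate block, and each library left out. Named genes were the members, genes of the lists past a threshold, overlapping genes, and the 3 genes of mean FPKM at least 1 most correlated with each member. The members and lists were chosen with earlier results of these data known. Fgf21, Slc7a11 and Derl3 were below the filter, and Mars1 was not matched by symbol. Promoters are RefSeq sequences (GRCm38.p6). Tables and figures were made with Python 3.11.15, pandas 2.3.3 and matplotlib 3.10.9.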

Additional observations from a re-analysis of the deposited data

How the results depend on the processing

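Over both genotypes Hspa5 and Ppp1r15a passed the threshold in all 19 alternatives run for that comparison, 13 of which left out libraries. With the replicate block, 2 members passed in C57BL/6J hearts (Hspa5, adjusted p = 0.0372, and Ppp1r15a, 0.0171), 2 in Slit2-Tg hearts and 4 over both genotypes (also Atf4, 0.0391, and Xbp1, 0.0484), and it changed no other member's call. All genes past the threshold were then 174 for IR in C57BL/6J hearts (70 without the block), 202 for IR in Slit2-Tg hearts (80) and 2 for Slit2-Tg without IR (6). With no filter 0 members passed in Slit2-Tg hearts, as with scaling outside the mitochondrial chromosome (adjusted p of Hspa5 0.0684 and 0.0600). All genes called for IR in C57BL/6J hearts were 32 with limma-voom, 7 with no filter, 9 with only the libraries compared and 40 with the other scaling. Those for IR in Slit2-Tg hearts were 121 with limma-voom, 19 with no filter and 50 with the other scaling. With no filter 299 genes were called over both genotypes, 276 of them among the 532 called with it, and 4 were called for the interaction. Slit2-Tg without IR gave 3 with 10 reads in every library, 11 with no filter and 10 with a pseudocount of 0.1. Slit2-Tg after IR gave 3 with 10 reads in every library and 4 with only the libraries compared.

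With each library left out, all genes called ranged from 3 (without C57-IR replicate 3) to 254 (without C57-IR replicate 1) for IR in C57BL/6J hearts and from 4 (without Slit2-IR replicate 2) to 180 (without C57-IR replicate 1) in Slit2-Tg hearts. Over both genotypes they ranged from 329 (without C57-non-IR replicate 2) to 713 (without C57-IR replicate 1). They ranged from 0 to 14 for Slit2-Tg without IR, from 4 to 12 after IR and from 0 to 2 for the interaction. Members called ranged from 0 to 3 for IR in C57BL/6J hearts, from 0 to 1 in Slit2-Tg hearts and from 2 to 5 over both genotypes. The cause of these changes was not tested.

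Of 60 member differences 34 never changed sign and 26 did, none of them past the threshold. The IR difference of Trib3 in Slit2-Tg hearts was -0.036 with limma-voom, -0.017 with a pseudocount of 0.1 and -0.050 with the other scaling, and its interaction was -0.0093 with limma-voom. With libraries left out, Trib3 ranged from -0.15 to 0.12 for IR in C57BL/6J hearts, from -0.25 to 0.14 in Slit2-Tg hearts and from -0.14 to 0.061 over both genotypes. Atf6 ranged from -0.075 to 0.26 in C57BL/6J hearts and from -0.16 to 0.040 over both genotypes. For Slit2-Tg without IR the ranges were -0.16 to 0.19 for Atf4, -0.25 to 0.30 for Ddit3, -0.16 to 0.11 for Xbp1, -0.13 to 0.044 for Hspa5, -0.044 to 0.10 for Asns, -0.38 to 0.38 for Ppp1r15a, -0.025 to 0.32 for Atf6 and -0.30 to 0.22 for Herpud1. For Slit2-Tg after IR they were -0.43 to 0.31 for Atf4, -0.37 to 0.022 for Trib3, -0.075 to 0.29 for Xbp1, -0.39 to 0.12 for Asns, -0.079 to 0.17 for Sesn2, -0.54 to 0.23 for Ppp1r15a and -0.34 to 0.16 for Herpud1. For the interaction they were -0.41 to 0.33 for Atf4, -0.22 to 0.17 for Trib3, -0.15 to 0.35 for Xbp1, -0.40 to 0.11 for Asns, -0.62 to 0.32 for Ppp1r15a and -0.55 to 0.25 for Herpud1. The other scaling moved the median of all genes by at most 0.06. Depth limits Asns, Sesn2 and Trib3 most, which rested on 26 to 182 reads per library.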
